A study of Mus musculus with 12 samples.

Results

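The interleukin-1 genes Il1a, Il1b, Il33, Il1rn and Il1r2 were described across 12 arrays of mouse melanoma tumour RNA. They were chosen by name as cytokines of the family, its antagonist and its decoy receptor. Each was found through the RefSeq accession in a probe-set name, taking the brightest probe set per gene. All 5 were matched, out of 909 genes named in a table of 1246 probe sets, and each had 1 probe set.

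Total RNA of the tumours was hybridised to Affymetrix arrays, and the deposited values are log2 RMA signals. There were 3 arrays in each of 4 groups. These were Tm1N3 tumours and Tm1G3 tumours of galectin-3 knockout hosts (Gal3 -/-, here KO), and Tm1N3 tumours and Tm1G3 tumours of wild-type (WT) hosts. By the labels Tm1N3 expresses galectin-3 and Tm1G3 has it silenced, and both are mouse melanoma lines. Neither the line names nor the Lgals3 levels below settle which of them carries the plasmid described next, so the direction of each line difference rests on those labels. The design text starts from 1 melanoma line without galectin-3, into which a plasmid coding for it was put, and has both kinds of cell grown in syngeneic hosts. Each kind of tumour thus comes from a single line. The labels speak of silencing and the design text of galectin-3 added to a line without it, and these accounts could not be reconciled here. The labels give no strain, age or tumour day and do not say that replicates were separate animals, so the p-values reflect the spread among these arrays, which may be technical.

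Interleukin-1 alpha and beta are inflammatory cytokines that signal through the receptor encoded by Il1r1 with the accessory chain encoded by Il1rap. Interleukin-1 beta comes mainly from activated monocytes, macrophages and neutrophils, whereas interleukin-1 alpha and interleukin-33 are also released by damaged cells. The receptor antagonist encoded by Il1rn occupies the signalling receptor without activating it, and Il1r2 encodes a decoy that binds the cytokine without signalling. Interleukin-33 acts through a separate receptor, ST2, the product of Il1rl1. In tumours interleukin-1 is known for inducing neutrophil chemokines and myeloid growth factors.

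The arrays were comparable in scale, with medians within 0.0945 of each other on the log2 scale. Lgals3, the galectin-3 gene itself, averaged 9.86 ± 0.62 in Tm1N3 and 9.31 ± 0.43 in Tm1G3 tumours of KO hosts, against 9.97 ± 0.37 in Tm1N3 and 9.61 ± 0.34 in Tm1G3 tumours of WT hosts (log2, SD, n = 3 each). Neither the lines nor the hosts differed by more than the spread in Lgals3. Where its probe set lies relative to the deleted or silenced sequence is not known here, so it checks neither label. The WT Tm1G3 replicate 1 array stood apart from the other 11. Of 16 probe sets whose highest array exceeded the next by over 1 on the log2 scale, 12 had their highest value on it. The interleukin-1 results are therefore given with and without that array. In whole tumour RNA, fewer cells of a type and less RNA per cell cannot be told apart.

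Il1b, which encodes interleukin-1 beta, had log2 levels of 5.98, 6.57 and 7.49 in KO Tm1N3 tumours and 7.46, 6.75 and 6.82 in KO Tm1G3 tumours. It had 6.71, 5.92 and 6.67 in WT Tm1N3 tumours and 11.08, 6.45 and 6.35 in WT Tm1G3 tumours. A single WT Tm1G3 array was thus far above all others, while its fellow replicates were below the median of the 12 arrays. Between the lines within a host, and between the hosts within a line, the ranges overlapped. The level on that array was 12.1-fold above the next highest array and 21.3-fold above the median of the other 11. This was the widest gap between the highest and the next array among all 1246 probe sets, and the range of 5.17 over 12 arrays was second in width to that of the chemokine gene Cxcl2.

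Il1a, which encodes the membrane-bound and released interleukin-1 alpha, was dim on most arrays, at the 28.3 percentile of mean signal. Its log2 levels were 4.09, 3.99 and 4.32 in KO Tm1N3 tumours and 4.11, 4.12 and 4.33 in KO Tm1G3 tumours. They were 4.23, 4.08 and 4.38 in WT Tm1N3 tumours and 6.36, 4.45 and 4.29 in WT Tm1G3 tumours. The same WT Tm1G3 array was again the highest, 3.77-fold above the next. The other 11 arrays lay within 0.46 of each other on the log2 scale.

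Il33, which encodes the alarmin of stromal and epithelial cells, had a different pattern. Its log2 levels were 5.86, 6.06 and 7.96 in KO Tm1N3 tumours and 6.93, 6.11 and 6.74 in KO Tm1G3 tumours. They were 5.91, 6.003 and 7.32 in WT Tm1N3 tumours and 6.30, 6.41 and 7.65 in WT Tm1G3 tumours. The array with the extreme Il1b level was only 7th of 12 for Il33. In 3 of the 4 groups the array numbered replicate 3 was the highest, and in KO Tm1G3 tumours replicate 1 was.

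Il1rn, the receptor antagonist gene, was the dimmest of the members, at the 17.3 percentile of mean signal, and varied least. It had log2 levels of 3.67, 3.63 and 3.89 in KO Tm1N3 tumours and 3.97, 3.68 and 3.73 in KO Tm1G3 tumours. It had 3.83, 3.66 and 3.91 in WT Tm1N3 tumours and 4.44, 3.84 and 3.73 in WT Tm1G3 tumours. The array with the high Il1b level was again the highest, at 0.70 above the median of the other 11. The corresponding excess of Il1b on that array was 4.41. How far so dim a signal lies above background was not tested, since the deposited table holds no detection values.

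Il1r2, the decoy receptor gene, had log2 levels of 5.68, 5.79 and 6.91 in KO Tm1N3 tumours and 6.26, 5.92 and 6.15 in KO Tm1G3 tumours. It had 6.16, 5.93 and 6.44 in WT Tm1N3 tumours and 8.31, 5.84 and 6.51 in WT Tm1G3 tumours. The same WT Tm1G3 array was 2.65-fold above the next highest, which was KO Tm1N3 replicate 3. The decoy thus stood high on the array with high Il1b, and its next highest array was the one that led for Il33.

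**Figure D1:**
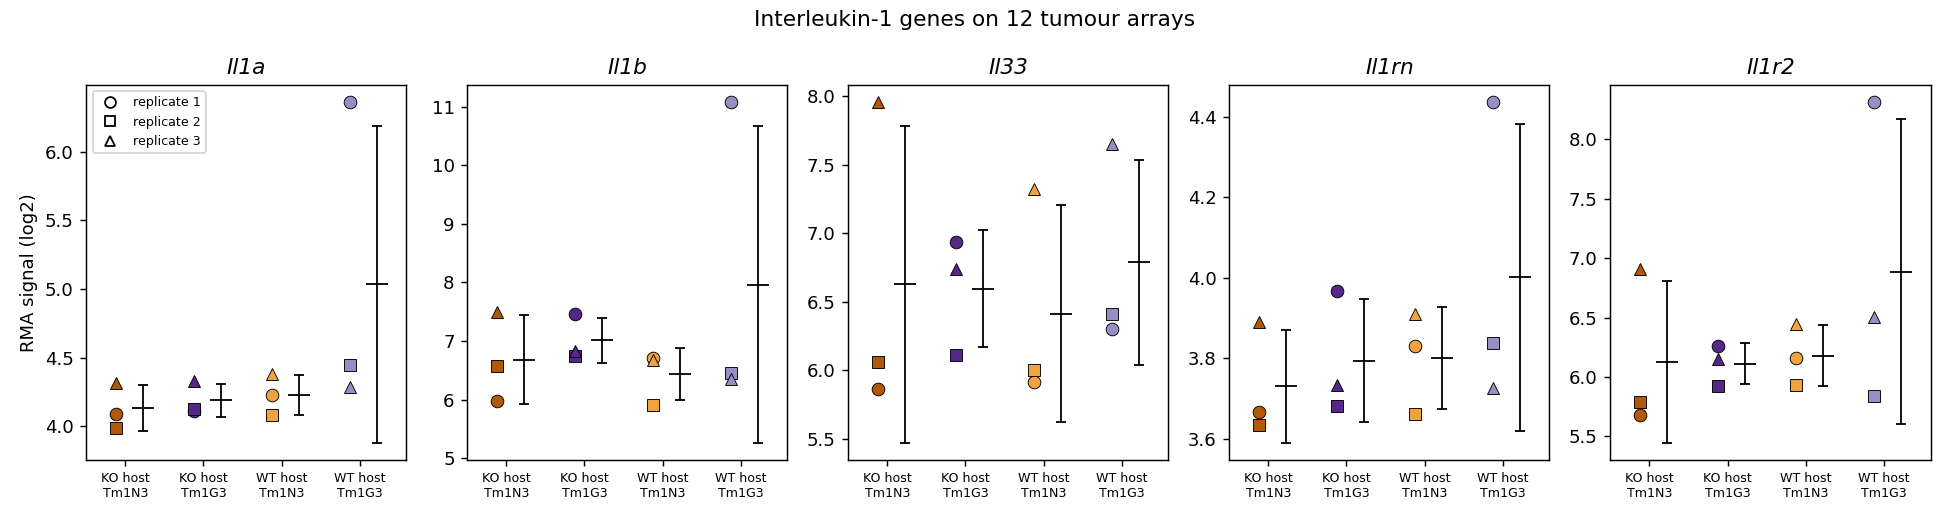
Log2 RMA signal of the 5 interleukin-1 genes on each of 12 arrays, by host and tumour line. Points are arrays with the marker giving the replicate number, and the bar beside them is the mean with its SD (n = 3); each panel has its own scale. In Il1a, Il1b, Il1rn and Il1r2 the WT Tm1G3 replicate 1 array is the highest of 12, at 6.36, 11.08, 4.44 and 8.31, and in Il33 the replicate 3 arrays of 3 groups are.

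The promoters of Il1b, Il1a and Il1r2 are shown because these genes had the widest excess among the members on the same array and each has 1 start site in the RefSeq table used. Each sequence holds the 250 bases before the RefSeq start, 5′ to 3′ on the gene's strand, in build GRCm38.p6. Il1b lies at chr2:129371140-129371389 and Il1a at chr2:129309973-129310222, both on the minus strand, and Il1r2 at chr1:40085843-40086092 on the plus strand. Capitals mark matches to TATAAA (gene strand, the TATA box), TGANTCA (AP-1, both strands), TTNNGNAAT (C/EBP, both strands) and GAGGAA (PU.1, both strands).
Il1b: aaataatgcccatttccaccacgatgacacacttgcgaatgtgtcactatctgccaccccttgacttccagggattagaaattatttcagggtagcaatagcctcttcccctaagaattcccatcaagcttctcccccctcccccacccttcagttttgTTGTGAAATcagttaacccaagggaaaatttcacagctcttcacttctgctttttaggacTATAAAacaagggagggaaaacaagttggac
Il1a: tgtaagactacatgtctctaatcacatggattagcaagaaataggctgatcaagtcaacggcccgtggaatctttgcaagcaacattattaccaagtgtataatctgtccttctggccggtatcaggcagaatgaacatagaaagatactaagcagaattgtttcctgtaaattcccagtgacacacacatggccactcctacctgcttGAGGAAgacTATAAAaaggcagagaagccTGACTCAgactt
Il1r2: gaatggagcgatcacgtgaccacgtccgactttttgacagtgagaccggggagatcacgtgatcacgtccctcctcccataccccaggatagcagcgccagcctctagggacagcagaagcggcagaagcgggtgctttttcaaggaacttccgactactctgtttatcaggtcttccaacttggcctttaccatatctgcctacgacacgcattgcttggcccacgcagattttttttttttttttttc

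The Il1b window held a TATA box beginning 31 bases before the start and a C/EBP match beginning 91 bases before it. The Il1a window held a TATA box beginning 32 bases before the start, an AP-1 match at 12 bases and a PU.1 match at 41 bases before it. None of these matches overlapped another. No match to these letters, nor to the NF-kB consensus searched on both strands, was in the Il1r2 window, and the NF-kB consensus was in none of the 3. Among 32851 RefSeq windows of the same length, 7.59% held the TATA box letters, 6.75% the AP-1, 10.2% the C/EBP, 23.3% the PU.1 and 7.25% the NF-kB letters. These matches describe the sequence and carry no measurement of binding.

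The first question was whether the members depend on the tumour line when host tissue has galectin-3. Il1b averaged 6.43 ± 0.45 in Tm1N3 and 7.96 ± 2.70 in Tm1G3 tumours (log2, SD, n = 3 each). Il1a averaged 4.23 ± 0.15 in Tm1N3 and 5.03 ± 1.15 in Tm1G3 tumours. Il1r2 averaged 6.18 ± 0.26 in Tm1N3 and 6.89 ± 1.28 in Tm1G3 tumours. All 5 members had negative differences, from -1.53 for Il1b to -0.20 for Il1rn with a median of -0.71, where the median over all probe sets was 0.00. The 95% interval of the Il1b difference ran from -3.81 to 0.75, which covers both a large deficit and a small excess in Tm1N3 tumours.

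None of the 5 members passed an adjusted p of 0.05 in limma (Benjamini-Hochberg over 1246 probe sets), where 0.883% of all probe sets did, and none had an unadjusted p under 0.05, where 13.1% did. The smallest member adjusted p in limma was 0.496, for Il1a. In 0 of 5 were the groups apart, against 16.9% of all probe sets. Without WT Tm1G3 replicate 1 the differences were 0.03 for Il1b, -0.14 for Il1a, 0.01 for Il1r2, 0.02 for Il1rn and -0.62 for Il33. The Il1b interval then ran from -0.88 to 0.94. The negative differences of Il1b, Il1r2 and Il1rn in WT hosts thus rested on 1 array. That of Il33 turned to 0.06 without another array, WT Tm1G3 replicate 3.

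The same question was asked of tumours in hosts without galectin-3. Il1b averaged 6.68 ± 0.76 in Tm1N3 and 7.01 ± 0.39 in Tm1G3 tumours, and Il33 averaged 6.63 ± 1.16 in Tm1N3 and 6.60 ± 0.43 in Tm1G3 tumours (log2, SD, n = 3 each). The member differences ran from -0.33 for Il1b to 0.03 for Il33, with a median of -0.06 beside 0.00 over all probe sets. None of the members passed in limma, where 0.722% of all probe sets did, and none had an unadjusted p under 0.05, where 9.47% did. The groups were apart in 0 of 5 members, against 13.7% of all probe sets. The 95% interval of Il1rn was the narrowest, from -0.44 to 0.31, and that of Il1b ran from -2.61 to 1.95 because the fit pools the spread of the 4 groups. Without WT Tm1G3 replicate 1 the Il1b interval in KO hosts narrowed to between -1.15 and 0.48.

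Averaged over hosts, the Il1b difference was -0.93 ± 0.73, the Il1a difference -0.43 ± 0.30, the Il1r2 difference -0.35 ± 0.38, the Il33 difference -0.17 ± 0.42 and the Il1rn difference -0.13 ± 0.12 (Tm1N3 minus Tm1G3, log2, SE). None of these 5 members passed in limma, where 4.25% of all probe sets did (smallest member adjusted p = 0.584), and none had an unadjusted p under 0.05, where 16.4% did. No member had its 6 Tm1N3 arrays apart from its 6 Tm1G3 arrays, against 3.29% of all probe sets. With that WT Tm1G3 array left out, the averaged differences were -0.15 for Il1b, -0.10 for Il1a, 0.01 for Il1r2, -0.29 for Il33 and -0.02 for Il1rn. The 95% interval of Il1a without it, from -0.28 to 0.09, corresponds to folds from 0.821 to 1.06.

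**Figure D2:**
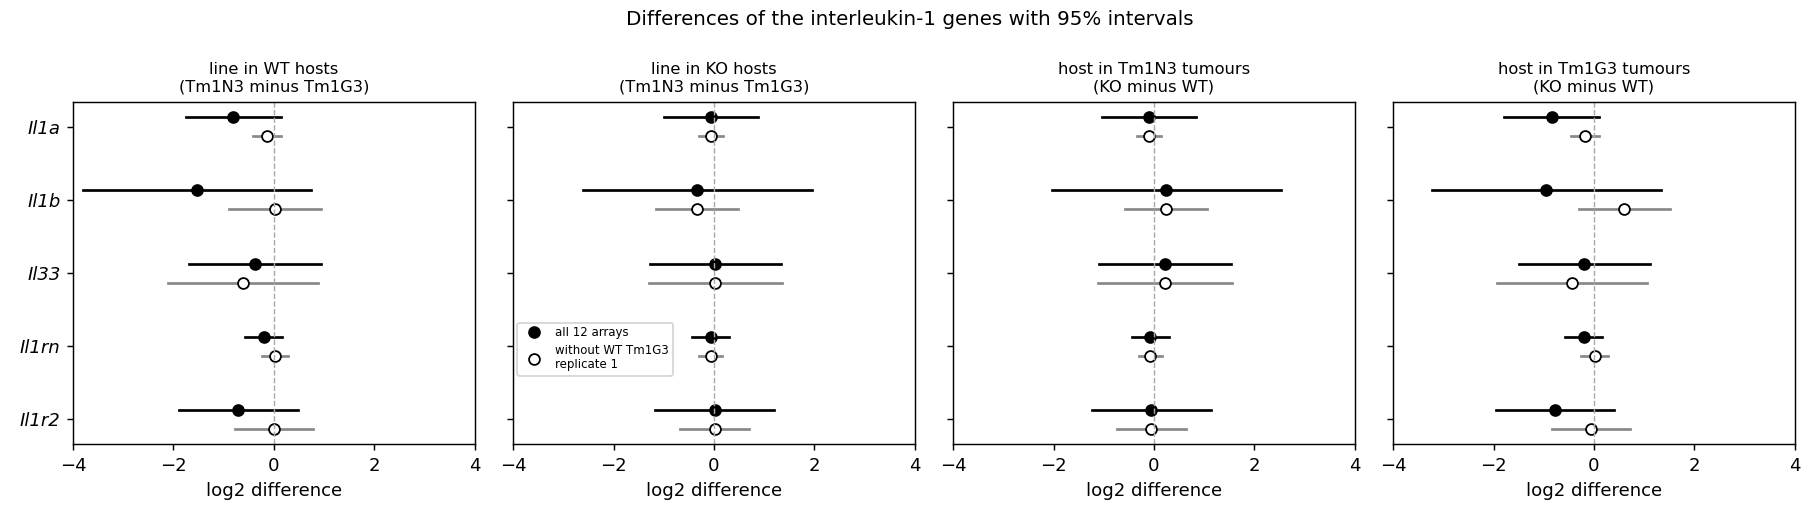
Log2 differences of the 5 genes with 95% intervals from limma, for the tumour line (Tm1N3 minus Tm1G3) in each host and for the host (KO minus WT) in each line. Filled points use all 12 arrays and open points leave out WT Tm1G3 replicate 1; all intervals cross 0, and the Il1b line difference in WT hosts is -1.53 with that array and 0.03 without it.

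The host comparisons ask what galectin-3 of the host tissue changes. In Tm1N3 tumours the differences, KO minus WT, ran from -0.10 for Il1a to 0.25 for Il1b, with a median of -0.05. None of the 5 members passed in limma, where 0.0% of all probe sets did, none had an unadjusted p under 0.05, where 4.33% did, and none had its groups apart, where 7.62% did. In Tm1G3 tumours all 5 differences were negative, from -0.95 for Il1b and -0.84 for Il1a to -0.19 for Il33. These share the WT Tm1G3 arrays with the line comparison in WT hosts. None passed in limma, where 0.0% of all probe sets did (smallest member adjusted p = 0.766), none had an unadjusted p under 0.05, where 6.18% did, and none had its groups apart, where 12.4% did. Leaving out WT Tm1G3 replicate 1, the Il1b difference turned to 0.61, with a 95% interval from -0.30 to 1.52, and Il1a was -0.18, Il1r2 -0.06, Il1rn 0.01 and Il33 -0.44.

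Averaged over lines, the host differences ran from -0.47 for Il1a to 0.01 for Il33, and without WT Tm1G3 replicate 1 from -0.14 for Il1a to 0.43 for Il1b. None passed in limma, where 0.0% of all probe sets did, none had an unadjusted p under 0.05, where 6.26% did, and none had its groups apart, where 0.562% did. Whether the line difference depended on the host was tested as an interaction, KO minus WT. It was 1.20 ± 1.45 for Il1b and 0.75 ± 0.60 for Il1a (log2, SE). No member passed in limma for the interaction, where 0.0% of all probe sets did, and none had an unadjusted p under 0.05, where 2.81% did. Leaving out that array, the interaction was -0.36 for Il1b and 0.08 for Il1a. The order of the 4 group means had WT Tm1G3 first for all 5 members, and the ranges of neighbouring groups in that order overlapped. Without replicate 1, WT Tm1G3 was highest for Il1a and Il33, lowest for Il1b and in between for Il1r2 and Il1rn.

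Pearson's r over the 12 arrays was high among Il1a, Il1b, Il1rn and Il1r2 and low between them and Il33, a contrast that rested on 1 array. In the 6 pairs among the 4 genes Pearson's r lay between 0.903 and 0.935 (permutation p from 0.00078 to 0.0224, adjusted over 10 pairs from 0.00707 to 0.0374). Spearman's rho in these pairs lay between 0.462 and 0.741 (permutation p from 0.00754 to 0.136, adjusted from 0.0407 to 0.151). With the 2 arrays farthest from the median left out, r lay between 0.208 and 0.671, and without WT Tm1G3 replicate 1 alone between 0.206 and 0.710. The strong relation therefore rested on that array, and Il1b with Il1rn had the highest r of the 6 without it. Il33 had r from -0.01 to 0.32 with the 4 genes over 12 arrays (permutation p from 0.322 to 0.983, adjusted from 0.461 to 0.983) and rho from 0.413 to 0.671 (permutation p from 0.0194 to 0.184, adjusted from 0.0484 to 0.184). Without WT Tm1G3 replicate 1, r between Il33 and Il1r2 was 0.912, the highest of the 10 pairs, and rho 0.80, and r between Il33 and the other three lay between 0.552 and 0.561.

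Genes with the most similar pattern were ranked by Pearson's r over 12 arrays, as a description, with probe sets in the lowest 25% of mean signal left out. For Il1b they included the macrophage inflammatory chemokine genes Ccl3 (r = 0.953) and Ccl4 (0.941) and the neutrophil chemokine gene Cxcl2 (0.939). Without WT Tm1G3 replicate 1 these had r from 0.773 to 0.858 with Il1b, so that part of the likeness was present on the other 11 arrays. It was not the closest there. Over those 11 arrays Pdgfrb (0.936), Col18a1 (0.922), Pdgfb (0.885) and Ggta1 (0.874) ranked first for Il1b. For Il1a they were Csf3, the granulocyte growth factor gene (0.971), its receptor gene Csf3r (0.949), Il1b (0.929) and the neutrophil chemokine gene Cxcl1 (0.922), with r from 0.206 to 0.552 without that array. For Il1rn they included Il1b (0.935), Ccl3 (0.922) and the neutrophil chemokine receptor gene Cxcr2 (0.920), with r from 0.677 to 0.752 without that array. Over the other 11 arrays Mrc2 (0.825), Csf2rb (0.812), Clec11a (0.812) and St8sia6 (0.804) ranked first for Il1rn. For Il1r2 they were Ccl3 (0.963), Csf3r (0.961), Ccl4 (0.959) and the macrophage surface gene Adgre1 (0.945), the last with r = 0.930 without that array. Over the other 11 arrays Vegfd (0.964), Col14a1 (0.962), Siglec1 (0.951) and Csf2rb2 (0.948) ranked first for Il1r2.

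The 15 measured genes of a list of 23 known to be induced by interleukin-1 were read beside the members. In WT hosts 12 of 15 were lower in Tm1N3 than in Tm1G3 tumours, beside 617 of all 1246 probe sets. The median log2 difference of the 15 was -0.31, and 0 passed in limma in either direction, where 0.883% of all probe sets did. With WT Tm1G3 replicate 1 left out, 7 of 15 were lower, beside 590 of 1246, and the median was 0.02. In KO hosts 10 of 15 were lower, beside 619 of 1246, with a median of -0.06, and 0 passed, where 0.722% did. Averaged over hosts the largest differences were Cxcl2 (-0.95 ± 0.89, SE), Ccl7, a monocyte chemokine gene (-0.56 ± 0.38), Ccl3 (-0.54 ± 0.51) and Il6, which encodes interleukin-6 (-0.41 ± 0.30), and 0 of the 15 passed. With WT Tm1G3 replicate 1 left out these were -0.12 for Cxcl2, -0.41 for Ccl7, -0.06 for Ccl3 and -0.10 for Il6, so the size of all but Ccl7 rested on that array. In Tm1G3 tumours 14 of 15 were lower in KO than in WT hosts, median -0.41, beside 660 of 1246 probe sets. Without WT Tm1G3 replicate 1 it was 6 of 15, median 0.03, beside 652 of 1246, with 0 of the 15 passed in both fits.

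On WT Tm1G3 replicate 1 itself, 9 of these 15 genes had their highest value of the 12 arrays. Cxcl2 was at 10.004 there, against 3.92 to 7.27 on the other 11. Ccl3 was at 8.91, against 5.26 to 6.99, and Il6 at 5.87, against 3.55 to 4.39. Csf3 was at 7.35, against a median of 5.82 on the others. The vascular adhesion genes did not share this, with Vcam1 at 5.70 against 4.21 to 6.11 and Icam1 at 6.17 against 5.38 to 6.29. Il23a was the lowest of the 12 on that array, at 5.42 against 5.51 to 6.03.

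Markers of neutrophils moved with the members on that array. Of 12 neutrophil markers 4 were measured, and 3 of the 4 had their highest value there. Csf3r was at 6.97, against 5.27 to 5.76 on the other 11 arrays, Cxcr2 at 5.70, against 4.46 to 5.07, and Clec4e, a receptor for damaged cells and mycobacteria, at 4.68, against 3.08 to 3.42. Cxcr1, the other measured marker, was at 4.77, below its highest level of 4.99 on the others. The mean log2 level of the 4 genes ran from 4.41 to 4.64 in KO Tm1N3, 4.39 to 4.49 in KO Tm1G3, 4.44 to 4.72 in WT Tm1N3 and 4.43 to 5.53 in WT Tm1G3 tumours, the last value being that array. The part of neutrophil numbers in the interleukin-1 values was not tested.

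Of 11 macrophage markers 3 were measured, and on WT Tm1G3 replicate 1 only Adgre1 lay above the range of the other arrays. Adgre1, which encodes F4/80, was at 7.98, against 5.07 to 6.90 on the other 11 arrays, while Csf1r, the macrophage growth factor receptor gene, at 8.50, and Mrc1, at 8.63, lay within their ranges. The mean of the 3 ran from 6.32 to 8.22 in KO Tm1N3, 7.26 to 7.67 in KO Tm1G3, 6.78 to 7.95 in WT Tm1N3 and 7.05 to 8.37 in WT Tm1G3 tumours. Its part in the interleukin-1 values was not tested. No marker of the mast cell, melanoma cell or T and NK cell lists was among the named genes, so the tumour cells themselves could not be checked. In the other lists, Lgals7, the galectin-7 gene of keratinocytes, was higher in Tm1N3 tumours averaged over hosts (0.63 ± 0.15, adjusted p = 0.0369 in limma). Without WT Tm1G3 replicate 1 it did not pass (0.61 ± 0.16, adjusted p = 0.0648 in limma). Icam2, an adhesion gene of endothelium, was lower (-0.40 ± 0.08, adjusted p = 0.0215 in limma), and passed without that array too (adjusted p = 0.0392 in limma). The other 2 measured endothelial markers did not pass and differed in sign, Emcn at 0.23 ± 0.20 and Pecam1 at -0.13 ± 0.18.

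**Figure D3:**
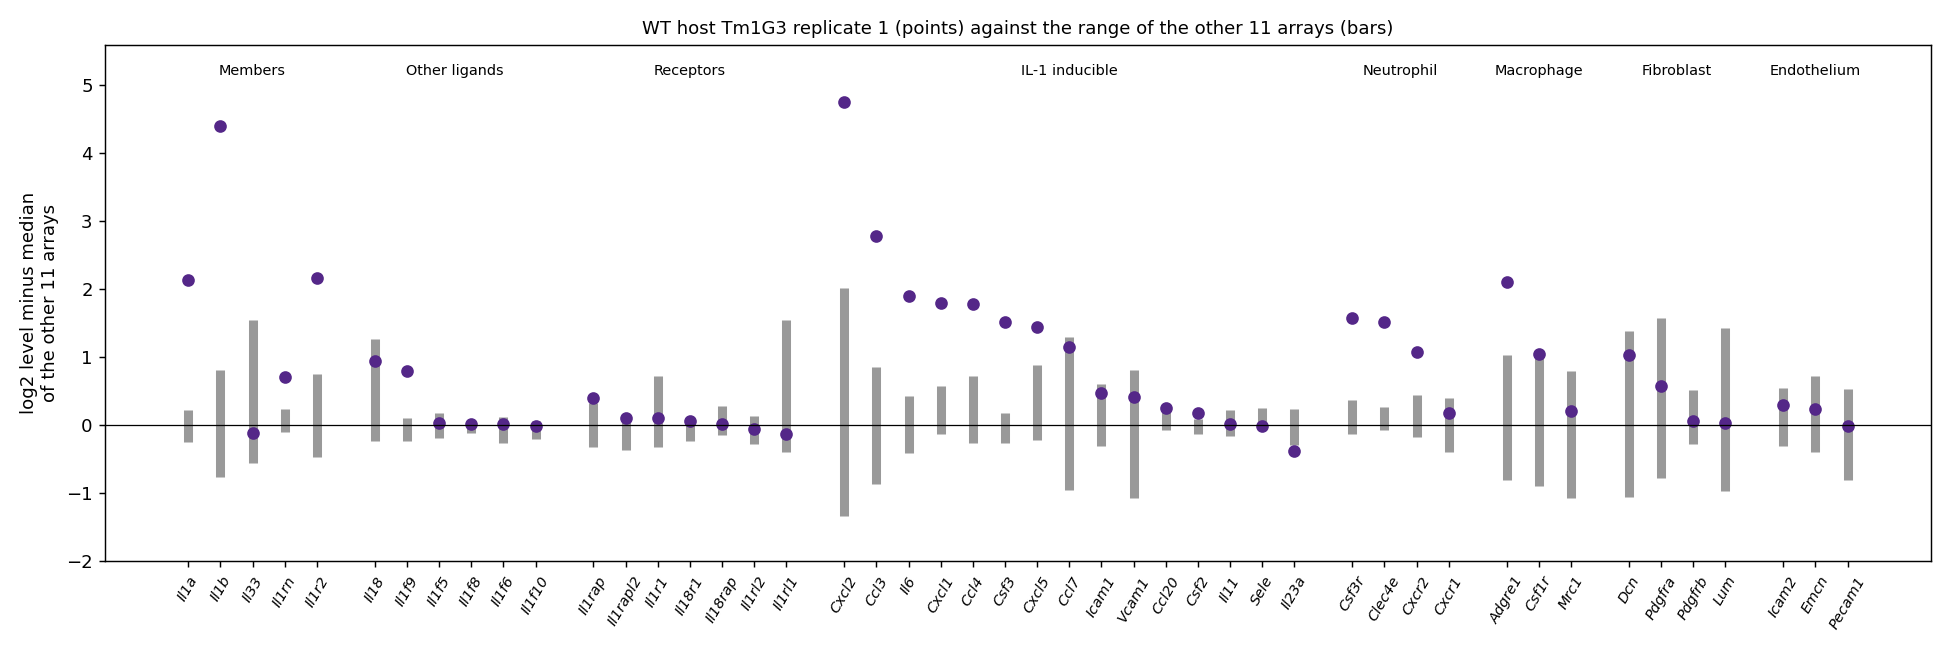
WT Tm1G3 replicate 1 compared with the other 11 arrays, gene by gene, as log2 level minus the median of the other 11. Points are that array and grey bars the range of the others, for all measured genes of the lists named above the points; Il1b is 4.41 and Cxcl2 4.75 above the median, and Il33 and the fibroblast genes lie within the bars.

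Of 7 measured genes in a list of 9 receptors, 0 passed in limma in any of 7 comparisons. The largest differences averaged over hosts were Il1rl1 (0.19 ± 0.41, SE), Il1r1 (0.16 ± 0.17), Il1rap (-0.10 ± 0.11) and Il18r1, an interleukin-18 receptor chain (-0.06 ± 0.07). Il1r1 was at 6.17 on WT Tm1G3 replicate 1, near the median of 6.06 of the other 11 arrays, so it was not among the genes that stood apart there. Il1rap, the accessory chain gene, was narrowly the highest of 12 on that array, at 5.50 against 4.78 to 5.42. So was Il1rapl2, at 3.76 against 3.29 to 3.72.

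Of 6 other ligands and inhibitors measured, out of 7 listed, 1 passed. Il18, an inflammatory cytokine gene of the same family, was lower in Tm1N3 tumours, by -1.15 ± 0.11 in KO hosts and -1.25 ± 0.11 in WT hosts (log2, SE), in limma with an adjusted p of 0.000618 in KO and 0.000593 in WT hosts. Its level on WT Tm1G3 replicate 1 was 7.37, within the range of 6.20 to 7.71 of the other arrays. The 5 other genes, Il1f5, Il1f6, Il1f8, Il1f9 and Il1f10, did not pass in any comparison. Il1f9, which encodes interleukin-36 gamma, was at 4.39 on WT Tm1G3 replicate 1, against 3.35 to 3.69 on the other 11.

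Il33 stood high together with Il1rl1, the gene of its receptor. On the replicate 3 arrays of KO Tm1N3, WT Tm1N3 and WT Tm1G3 tumours Il33 was between 7.32 and 7.96 and Il1rl1 between 6.53 and 6.66. On the other 9 arrays Il33 was between 5.86 and 6.93 and Il1rl1 between 4.73 and 5.35, so the ranges of both genes were apart. KO Tm1G3 replicate 3 was not among the high arrays, at 6.74 for Il33 and 5.35 for Il1rl1. The arrays fell into these clusters, and no correlation of the pair is given. Of the variance of Il33 over 12 arrays, 70.6% lay between replicate numbers, 1.57% between lines and 0.00727% between hosts. Replicate numbers form more classes than lines or hosts, so these shares are not on like terms. For the other members the share between replicate numbers ran from 13.6% for Il1a to 28.0% for Il1rn. These 3 arrays were picked out by their values, so the separation is a description.

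**Figure D4:**
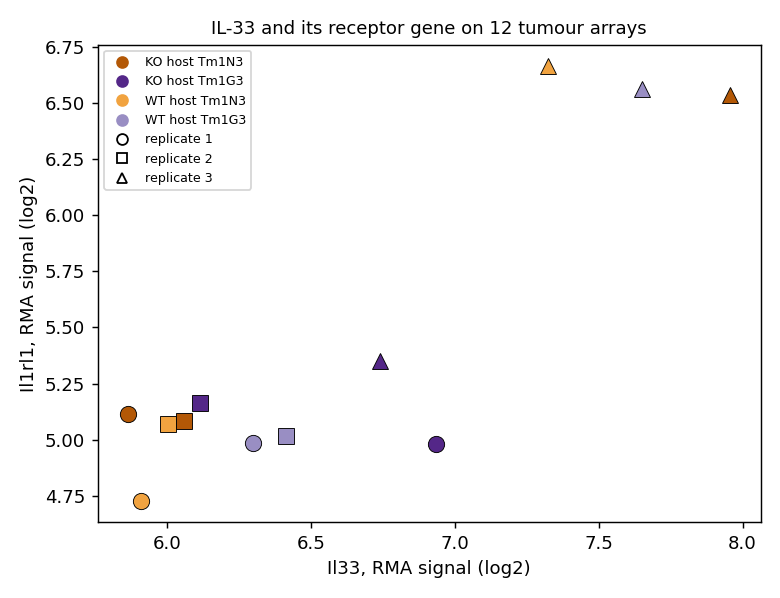
Log2 RMA signal of Il1rl1 against that of Il33 on each of 12 arrays, coloured by host and line, with the marker giving the replicate number. The replicate 3 arrays of 3 groups lie apart at the upper right, above 7.32 for Il33 and 6.53 for Il1rl1, while KO Tm1G3 replicate 3 lies with the other arrays.

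The genes most like Il33 were Ccl9, a myeloid chemokine gene (r = 0.954 over 12 arrays), Igfbp6, an insulin-like growth factor binding protein gene (0.938), Col14a1, a collagen gene of fibroblasts (0.934), and Galnt16, an enzyme that starts O-glycans (0.924). These values hardly changed without WT Tm1G3 replicate 1, at 0.923 to 0.962. Ccl9 was between 6.69 and 7.06 on the 3 arrays with high Il33, against 5.18 to 6.30 on the other 9. Col14a1 was between 7.83 and 8.15 on them, against 6.45 to 7.47.

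Fibroblast markers moved with Il33 in part. Of 8 markers 4 were measured, and their mean log2 level ran from 6.25 to 8.19 in KO Tm1N3, 6.82 to 7.64 in KO Tm1G3, 6.88 to 7.97 in WT Tm1N3 and 6.92 to 7.58 in WT Tm1G3 tumours. The matrix gene Dcn was between 9.59 and 9.91 on the 3 arrays with high Il33, against 7.47 to 9.65 on the other 9, and Lum was between 6.83 and 7.72, against 5.33 to 7.04. Pdgfra, a growth factor receptor gene of fibroblasts, was between 7.14 and 7.96, against 5.61 to 6.97, and the related Pdgfrb between 6.75 and 7.38, against 6.59 to 7.34. The ranges of Pdgfra were thus apart, like those of Il33 and Il1rl1, and those of the other 3 overlapped. Of the macrophage genes, Csf1r was between 8.10 and 8.55, against 6.55 to 8.50, and Adgre1 between 6.51 and 6.90, against 5.07 to 7.98. In both genes the upper end of the other 9 was WT Tm1G3 replicate 1. Without that array it was 7.92 for Csf1r and 6.25 for Adgre1, so their ranges were then apart too. Mrc1 was between 8.50 and 9.22, against 7.35 to 8.84, and overlapped with or without that array. The part of either cell type in the Il33 values was not tested.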

How the data were processed

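Tumour RNA of 12 arrays was measured on an Affymetrix platform. The values deposited by the authors are log2 signals from RMA, per the submitters' processing notes, which name no version of it. They ran from 2.14 to 13.9 and were used as deposited, and the number of arrays limits the precision. Accessions were looked up without version numbers in a RefSeq table (GRCm38.p6), which gave 963 of 1246 probe sets 1 symbol. Promoter sequences are RefSeq's, from the same build.

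Groups follow the host and line in the labels. Using limma 3.58.1 (lmFit, eBayes; R 4.3.3), 4 group means were estimated from 12 arrays and 1246 probe sets, with 8 residual and 2.39 prior degrees of freedom. Benjamini-Hochberg adjustment covered all probe sets in each of 7 comparisons, with a threshold of 0.05. Levels carry SD and differences the SE of limma. Correlations used 100000 permutations. The fit was tested on simulated data. Named genes are the members, Lgals3, the 4 genes most correlated with each member and, per list, those past the threshold and up to 4 with the largest averaged line difference; others, and the arrays singled out, were chosen after their values were seen. One gene that this rule names is not reported here. The members and lists were chosen with earlier results of these data known.

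Groups share replicate numbers, whose meaning the labels leave unsaid. Same-numbered arrays of the 2 hosts deviated together, with correlations from 0.184 to 0.752 in Tm1N3 and from 0.249 to 0.308 in Tm1G3 tumours. Each exceeded 0.1, so a random block pairing hosts within a line was run as an alternative. Different-numbered arrays were not compared in this way. The main fit used no replicate block, since the labels state no pairing, so the host differences given above are unpaired. Across lines correlations ran from -0.660 to 0.544, and no pairing was assumed. Alternatives were other scalings, a filter on dim probe sets, a trended prior, array weights, the compared groups alone, both replicate blocks and each array left out.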

Additional observations from a re-analysis of the deposited data

How the results depend on the processing

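No member passed an adjusted p of 0.05 in limma in any of the 7 comparisons under any setting run, and the smallest adjusted p in limma over all of them was 0.339, for Il1r2 in the line comparison in WT hosts without WT Tm1G3 replicate 2. The signs were less stable: 38 of 420 member differences changed sign when 1 array was left out, and 5 of 258 under the other settings. Log2 differences that changed sign with 1 array left out are given as their lowest and highest values. For the line difference in WT hosts these ran from -2.34 to 0.028 for Il1b, from -0.34 to 0.018 for Il1rn, from -1.23 to 0.0057 for Il1r2 and from -0.83 to 0.057 for Il33. For the line difference in KO hosts these ran from -0.15 to 0.015 for Il1a, from -0.74 to 0.017 for Il1b, from -0.14 to 0.024 for Il1rn, from -0.38 to 0.24 for Il1r2 and from -0.63 to 0.41 for Il33. For the line difference averaged over hosts these ran from -0.61 to 0.011 for Il1r2 and from -0.50 to 0.044 for Il33. For the host difference in Tm1N3 tumours these ran from -0.16 to 0.60 for Il1b, from -0.44 to 0.17 for Il1r2 and from -0.45 to 0.67 for Il33. For the host difference in Tm1G3 tumours these ran from -1.76 to 0.61 for Il1b, from -0.34 to 0.011 for Il1rn and from -0.44 to 0.24 for Il33. For the host difference averaged over lines these ran from -0.76 to 0.43 for Il1b and from -0.32 to 0.24 for Il33. For the interaction these ran from -0.36 to 2.00 for Il1b, from -0.082 to 0.27 for Il1rn and from -0.26 to 0.86 for Il33. With array weights, the Il1r2 line difference in KO hosts was -0.091, and Il33 had -0.064 in that comparison, -0.091 in the host comparison in Tm1N3 tumours and -0.29 in the host comparison averaged over lines, which was -0.00077 after normalizing by quantiles again. The cause was not tested. Of 10 pairs of members, 6 correlated with r over 0.7. Without WT Tm1G3 replicate 1, a setting chosen after seeing the data, 2 did. These were Il1b with Il1rn (0.710), which was among the 6, and Il1r2 with Il33 (0.912), which was not. With the replicate block, fixed or random, the count of members called was 0 in each comparison, and the block changed no call. The filter on dim probe sets left out Il1rn, which therefore has no value under it, and the mean over several probe sets could not be run because each member has 1. Dim signals limit what can be said of Il1rn and Il1a.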
